A study of Homo sapiens with 3 samples.

Results

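Sestrins and their partners form a set of 10 genes whose products hold back mTORC1, the kinase complex that drives protein synthesis and cell growth. The set was taken by symbol, as SESN1, SESN2, SESN3, DDIT4, TSC1, TSC2, DEPDC5, NPRL2, NPRL3 and DEPTOR, from a table of 57736 gene rows. All 10 were found, each in 1 row, and all 10 were among the 14524 genes with enough counts to be tested. RNA came from TOV21G, an established human line of ovarian clear cell carcinoma that carries a mutated ARID1A gene. ARID1A codes for a subunit of a SWI/SNF chromatin remodelling complex. One library (WT, n = 1) was from cells labelled wild type for HDAC2, a histone deacetylase, and 2 libraries (HDAC2 knockdown, n = 2) were from cells transduced with lentivirus carrying a short hairpin against HDAC2. Each knockdown library stands for a different hairpin, shRNA 1 or shRNA 2, and whether a virus was also given to WT cells is left unsaid in the labels. Knockdown and transduction therefore cannot be told apart, and the WT level of every gene rests on a single library.

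mTORC1 becomes active on the lysosome when Rag GTPases recruit it there and the small GTPase RHEB switches it on. The TSC complex, of TSC1 and TSC2 with TBC1D7, turns RHEB off. The GATOR1 complex, of DEPDC5, NPRL2 and NPRL3, turns the Rag GTPases off when amino acids are scarce, and GATOR2 opposes it. Sestrins bind GATOR2 and so release GATOR1, SESN2 doing this as a leucine sensor. DDIT4, also called REDD1, acts on the TSC side during hypoxia and energy stress, and DEPTOR binds the kinase complexes themselves. Known inducers differ between these genes and include FOXO factors for SESN1 and SESN3, ATF4 for SESN2, and HIF1 and ATF4 for DDIT4.

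The stems of the knockdown hairpins are shown because every comparison rests on them. Each is 21 bases long and matched an HDAC2 transcript with 0 mismatches. In the annotated transcripts of the 10 genes, neither stem came closer than 5 mismatches on either strand, in SESN3. Shorter matches, such as a seed, were not searched. Which stem is shRNA 1 is not given in the labels.
First hairpin in the labels: cagtctcaccaatttcagaaa
Second hairpin in the labels: gcaaatactatgctgtcaatt

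Promoter sequence is shown for the genes that passed the test, namely SESN1, SESN3 and DDIT4. The windows are the 250 bases before an annotated start (RefSeq, GRCh38.p14), written 5′ to 3′ on the gene's strand. Capitals mark matches to ACGTG, a form of the core of the hypoxia response element. Other forms of this core, such as GCGTG, were not searched and are not marked. A window was found for 9 of the 10 genes, 14 windows in all because some genes have several starts, and DEPTOR was not searched. SESN1 has 3 windows, and the one shown lies at its outermost start.
SESN1, chr6:109094847-109095096, minus strand: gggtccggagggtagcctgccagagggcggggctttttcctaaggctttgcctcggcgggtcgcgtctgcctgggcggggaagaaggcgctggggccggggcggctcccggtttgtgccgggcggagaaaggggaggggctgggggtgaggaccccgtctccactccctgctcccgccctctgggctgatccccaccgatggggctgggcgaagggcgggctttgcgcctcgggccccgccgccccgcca
SESN3, chr11:95232476-95232725, minus strand: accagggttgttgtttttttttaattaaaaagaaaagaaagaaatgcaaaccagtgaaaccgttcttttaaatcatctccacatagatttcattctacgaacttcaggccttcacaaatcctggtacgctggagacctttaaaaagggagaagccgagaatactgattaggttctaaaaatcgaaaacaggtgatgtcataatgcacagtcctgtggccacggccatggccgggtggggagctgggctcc
DDIT4, chr10:72273674-72273923, plus strand: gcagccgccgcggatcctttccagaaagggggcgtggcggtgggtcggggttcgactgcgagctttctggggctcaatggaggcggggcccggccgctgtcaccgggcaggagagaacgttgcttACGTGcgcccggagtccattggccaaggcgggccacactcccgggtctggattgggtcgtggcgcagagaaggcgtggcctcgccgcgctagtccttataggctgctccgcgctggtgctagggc

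Both strands were searched for 3 motifs chosen after known inducers. ACGTG was found in 2 of the 14 windows, those of TSC2 and of DDIT4, in the latter at positions −125 to −121 (−1 is the base before the start). It occurred in 18.51% of 35116 promoter windows of the same length. In TSC2 it overlapped the only match to TGATGNAA, the element bound by ATF4, which 3.14% of all windows hold. The FOXO motif TGTTTAC was in 0 of the 14 windows and in 2.98% of all. These are letter matches in short windows, and sites elsewhere, such as in introns, were not searched.

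The depth of the libraries was 10138479 counts in WT, 11398791 with shRNA 1 and 11225492 with shRNA 2. Levels below are TMM-scaled CPM (counts scaled to a common library total), and the floor set by a count of 0 (3 counts) equals 0.262 to 0.301 CPM. HDAC2 RNA was at 105 CPM in WT, 33.4 with shRNA 1 and 51.6 with shRNA 2, or 31.7% and 48.9% of WT. The 8 markers of clear cell carcinoma and epithelium summed to between 1759 and 2104 CPM per library, although KRT7 and CDH1 were low, with at most 20 counts per library. Leukocyte and endothelial markers summed to at most 3.81 and 0.872 CPM. The 6 fibroblast and stroma markers rose from a sum of 15.7 CPM in WT to 24.3 and 38.7 CPM with shRNA 1 and shRNA 2, mainly through COL1A2, while COL3A1 and LUM were at 0 in every library. Their part in the results below was not tested. GC content moved with the comparison across the whole table: the median log2 change was 0.26 in the third of genes with the lowest transcript GC (up to 43.8%) and −0.24 in the third with the highest (from 53%). For that reason the changes of the 10 genes, and those of the pathway and target genes that passed, are also given with this trend removed.

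In knockdown cells, 2 of the 10 genes rose and 1 fell. SESN3 rose 2.58-fold and SESN1 2.08-fold, DDIT4 fell to 0.672 of WT, and no call was made for the other 7. Of all 14524 genes, 1121 passed (7.72%), of which 575 rose (3.96%) and 546 fell (3.76%). The median log2 change was −0.01 over the 10 genes and 0.01 over all genes tested. With both hairpins, 4 of the 10 lay above WT and 4 below, against 39.9% and 39.3% of all genes. With the GC trend removed, 3 of the 10 passed and all of those were sestrins, against 4.71% of all genes in either direction and 1.72% upwards (250 rose and 434 fell). In a bulk sample, a change in RNA per cell and a change in which cells are present cannot be told apart. The test throughout is the quasi-likelihood test of edgeR over all genes with Benjamini-Hochberg adjustment, and a call needs an adjusted p below 0.05. Its spread comes from the 2 hairpin libraries and is mostly shared between genes (1 residual degree of freedom per gene, a prior of 18.9). Nothing measured how WT cells vary.

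**Figure D1:**
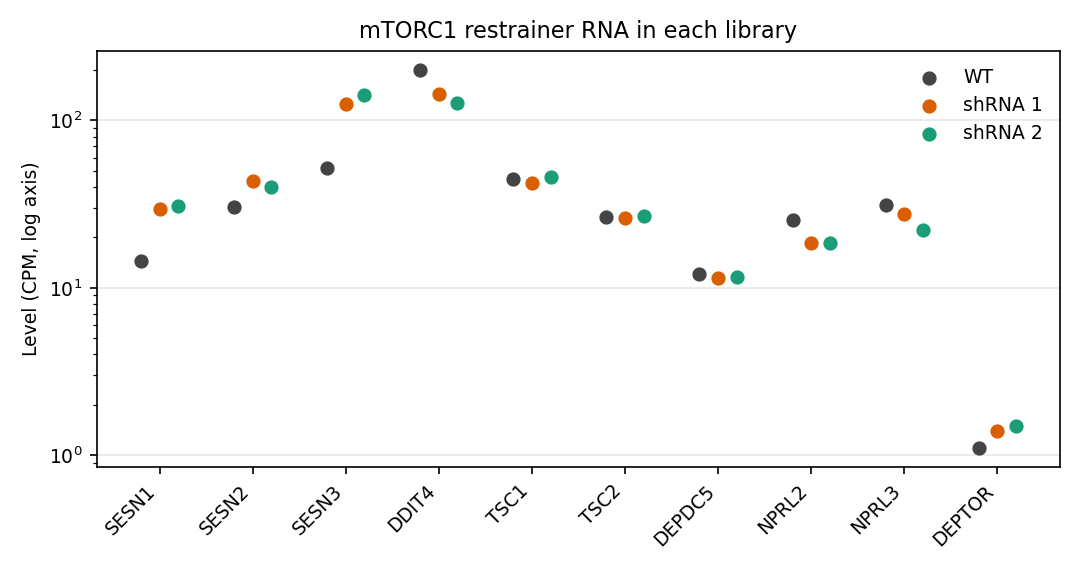
Level of each of the 10 genes in CPM (vertical log axis) in the WT library and in the libraries of shRNA 1 and shRNA 2, 1 point per library. SESN1, SESN2 and SESN3 lie above WT with both hairpins, and DDIT4 lies below it with both.

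SESN3 (ENSG00000149212; chromosome 11, 95165513 to 95232541, minus strand, GRCh38) had 517 counts in WT, 1435 with shRNA 1 and 1608 with shRNA 2. Its levels were 51.9, 125 and 142 CPM, so both knockdown libraries stood well above WT and close to each other. The knockdown mean was 258% ± 23.2 of WT (SD, n = 2). The quasi-likelihood test of edgeR gave a log2 change of 1.37 ± 0.19 (SE; adjusted p = 2.25e-04). Only 1.97% of the genes tested had a higher log2 change. From counting error alone, the ratio to WT lay between 2.18 and 2.67 with shRNA 1 and between 2.48 and 3.03 with shRNA 2 (95% exact intervals). SESN3 has a long, GC-poor transcript (37.1% GC), and with the GC trend removed its log2 change was 1.03 and still passed (adjusted p = 0.00171, edgeR; 1.43e-08 to 0.468 over the alternatives).

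SESN1 (ENSG00000080546; chromosome 6, 108986437 to 109094819, minus strand) had 144 counts in the WT library and 337 and 348 in the knockdown libraries. Levels in the same order were 14.5, 29.4 and 30.8 CPM. The hairpin libraries differed from each other by a ratio of 1.05, with a 95% exact interval of 0.898 to 1.22 from counting error, and each was about double the WT level, at 204% and 213% of it. The log2 change was 1.06 ± 0.22 (SE; adjusted p = 0.00471, quasi-likelihood test of edgeR). It was 0.92 with the GC trend removed and passed again (adjusted p = 0.0108, edgeR; 9.10e-04 to 0.468 over the alternatives). By DESeq2's Wald test it missed the threshold (adjusted p = 0.0587). Of its read-length sequences 5.86% also occur in AL390208.1, an antisense gene, and the sources used here do not give whether reads were counted by strand.

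SESN2 (ENSG00000130766; chromosome 1, 28259527 to 28282491, plus strand), the leucine-sensing sestrin, had 301, 498 and 451 counts. Its levels were 30.2 CPM in WT and 43.5 and 39.9 CPM with shRNA 1 and shRNA 2. Both knockdown libraries were above WT, at a mean of 138% ± 8.35 (SD, n = 2), but the difference did not pass the test. The log2 change was 0.46 ± 0.19 (SE; adjusted p = 0.141, quasi-likelihood test of edgeR), with a 95% interval, unadjusted, of 0.07 to 0.86. Its transcript is GC-rich (59.5%), and with the GC trend removed its log2 change was 0.71 and passed (adjusted p = 0.0226, edgeR; 0.0226 to 0.485 over the alternatives). None of its read-length sequences occurs in another gene.

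Compared per length of annotated exons, the sestrins summed to 16.5 CPM per kilobase in WT, 30.2 with shRNA 1 and 31.0 with shRNA 2, or 1.83 and 1.88 times WT. SESN2 made up 53.1% of that sum in WT, and 41.7% and 37.2% with the hairpins. The share of SESN3 was 29.8%, 39.3% and 43.4%, and that of SESN1 17.1%, 19.0% and 19.4%. SESN3 thus stood below SESN2 per length in WT, while in knockdown cells the order of the pair differed between hairpins. This order depends on the length used: per coding length SESN3 was the highest in WT too, with 54.2% of the sum, and it had 63.9% and 67.5% with the hairpins. The SESN3 share was larger and the SESN2 share smaller in both knockdown libraries than in WT. A gene has the same length in every library, so trying other lengths could not change this direction. The GC trend was not removed from these shares. Removing it brought the log2 changes of the pair closer, from 1.37 to 1.03 for SESN3 and from 0.46 to 0.71 for SESN2.

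DDIT4 (ENSG00000168209; chromosome 10, 72273920 to 72276036, plus strand) was the most abundant of the 10 genes per length in every library, at 97.6 CPM per kilobase in WT against 8.75 for SESN2, the next per length of annotated exons. By other lengths DDIT4 was again first in WT, and the next was NPRL3 per longest transcript and SESN3 per coding length. It had 2003 counts in WT, 1637 with shRNA 1 and 1437 with shRNA 2, which are 201, 143 and 127 CPM. Both knockdown libraries were lower, at a mean of 67.2% ± 5.54 of WT (SD, n = 2). The log2 change was −0.57 ± 0.17 (SE; adjusted p = 0.0425, quasi-likelihood test of edgeR), just past the threshold. With the GC trend removed the log2 change was −0.35 and did not pass (adjusted p = 0.247, edgeR; 0.0319 to 0.468 over the alternatives). The call was also lost by DESeq2's Wald test (adjusted p = 0.110). The transcript has 58.1% GC. Of its read-length sequences (75 bases) 33.98% also lie in the antisense gene DDIT4-AS1, so the value is uncertain where reads were not counted by strand. Its relative DDIT4L had 3, 5 and 5 counts and was not tested.

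**Figure D2:**
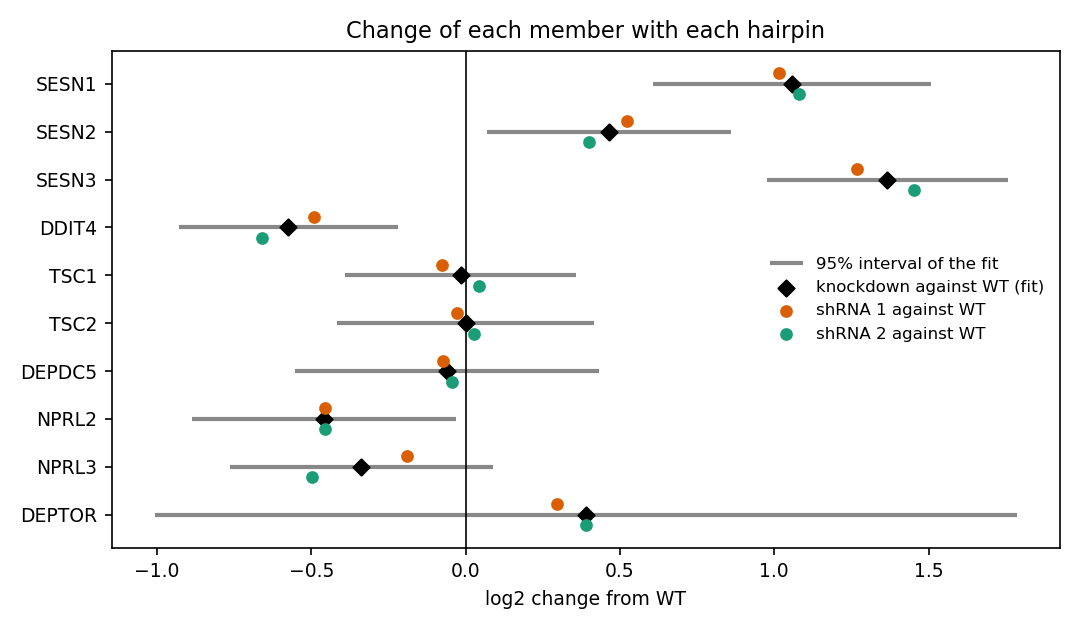
log2 change of each gene from WT (horizontal axis): orange and green points for shRNA 1 and shRNA 2, black diamonds for the fitted change of both against WT, and grey bars for its unadjusted 95% interval. The bars of SESN1, SESN2 and SESN3 lie above 0 and those of DDIT4 and NPRL2 below 0, of which SESN2 and NPRL2 did not pass after adjustment, those of TSC1 and TSC2 are centred near 0, and that of DEPTOR is the widest.

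In CPM, the TSC complex stayed near its WT level in both knockdown libraries. TSC1 (ENSG00000165699; chromosome 9, 132891348 to 132946874, minus strand), the stabilising subunit, had 444, 484 and 519 counts, or 44.5, 42.2 and 45.9 CPM, with WT between the hairpins. TSC2 (ENSG00000103197; chromosome 16, 2047465 to 2089487, plus strand), the subunit that acts on RHEB, had 264, 298 and 305 counts, or 26.5, 26 and 27.0 CPM, again with WT in between. The log2 changes were −0.02 ± 0.18 (SE) and 0.00 ± 0.20 (SE), with unadjusted 95% intervals of 0.763- to 1.28-fold for TSC1 and 0.749- to 1.34-fold for TSC2. Changes larger than these were thus outside the interval, and smaller ones were not detectable here. The log2 changes of TSC1 and TSC2 were −9.19e-04 and 0.26 with the GC trend removed, and neither passed. TBC1D7, the further subunit, was at 32, 31.4 and 28.8 CPM (log2 change −0.09 ± 0.19, SE). With the GC trend removed its log2 change was −0.30, which did not pass. TSC2 overlaps PKD1 and NTHL1 on the opposite strand, which share 4.78% of its read-length sequences together with smaller overlaps.

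The GATOR1 subunits lay at or below WT, and none passed the test. DEPDC5 (ENSG00000100150; chromosome 22, 31753867 to 31908033, plus strand), which contacts the Rag GTPases, had 120, 131 and 132 counts, or 12.04, 11.4 and 11.7 CPM, nearly level across libraries. NPRL2 (ENSG00000114388; chromosome 3, 50347330 to 50351091, minus strand), the catalytic subunit, had 252, 211 and 208 counts, or 25.3, 18.4 and 18.4 CPM. Both hairpins put NPRL2 at 72.8% of WT, and its log2 change was −0.46 ± 0.21 (SE; adjusted p = 0.181, quasi-likelihood test of edgeR). NPRL3 (ENSG00000103148; chromosome 16, 84271 to 138860, minus strand), the partner of NPRL2, had 313, 315 and 251 counts, or 31.4, 27.5 and 22.2 CPM. It lay below WT with both hairpins, further with shRNA 2 (70.7%) than with shRNA 1 (87.5%), at a log2 change of −0.34 ± 0.20 (SE; adjusted p = 0.336, quasi-likelihood test of edgeR). With the GC trend removed, the log2 changes of DEPDC5, NPRL2 and NPRL3 were 0.06, −0.27 and −0.07.

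Per length of annotated exons, GATOR1 summed to 12.3 CPM per kilobase in WT and to 9.82 and 9.03 with shRNA 1 and shRNA 2, or 0.798 and 0.734 of WT. DEPDC5 was the scarcest subunit in every library, with 5.64% of the sum in WT, 6.71% with shRNA 1 and 7.46% with shRNA 2. The sum of the sestrins over that of GATOR1 was therefore higher in both knockdown libraries, a description with no test. The GC trend was not removed from these sums, and SESN3 is GC-poor (37.1%) while NPRL2 and NPRL3 are GC-rich (55.9% and 61.6%). Of the 75-base sequences of DEPDC5 9.26% are shared, mainly with Z82190.2 on its own strand, of those of NPRL2 6.79% with the opposite-strand CYB561D2, and of those of NPRL3 10.3%, mainly with Z69720.1 and MPG on the opposite strand.

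DEPTOR (ENSG00000155792), the inhibitor bound to the kinase complexes, was the scarcest of the 10 genes. It had 11, 16 and 17 counts, or 1.10, 1.40 and 1.503 CPM. Its log2 change of 0.39 ± 0.67 (SE; adjusted p = 0.772, quasi-likelihood test of edgeR) has an interval from 0.498- to 3.45-fold, so a doubling or a halving was not detectable at this depth. Its log2 change was 0.33 with the GC trend removed.

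Between the hairpins, 6 of the 10 genes were higher with shRNA 2 than with shRNA 1, against 50.2% of all genes tested. Over all genes the median absolute log2 difference between the hairpin libraries was 0.19. Of the 10 genes, NPRL3 differed the most, at a ratio of shRNA 2 to shRNA 1 of 0.808 with a 95% exact interval of 0.682 to 0.957. SESN3 was at 1.14 (1.06 to 1.22) and DDIT4 at 0.890 (0.828 to 0.956). The intervals of the other 7 included 1. They cover counting error only, so with 1 library per hairpin the difference between hairpins was not tested.

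**Figure D3:**
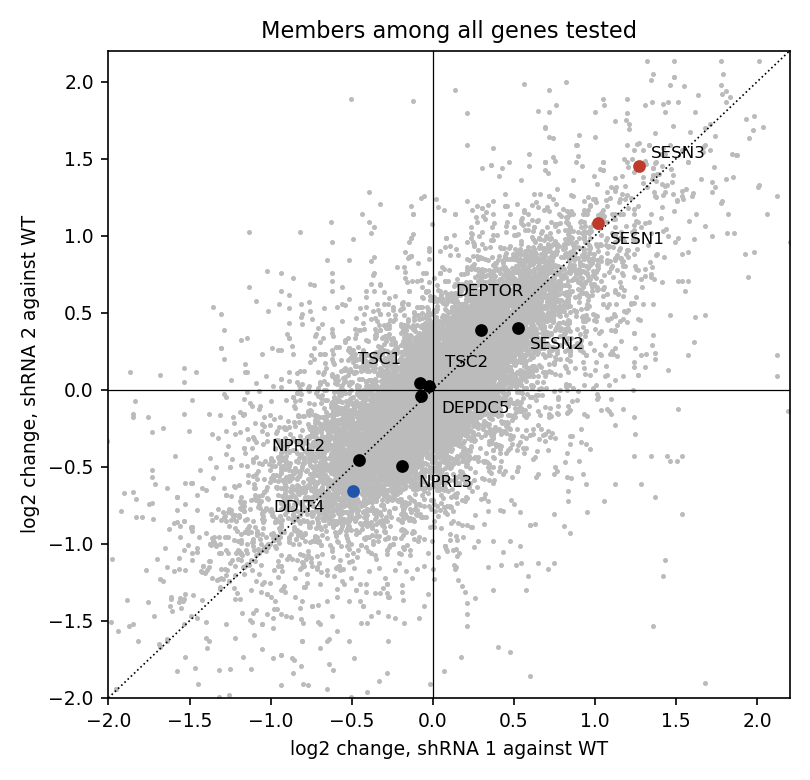
log2 change from WT with shRNA 1 (horizontal axis) and shRNA 2 (vertical axis) for all 14524 genes tested in grey, with the 10 genes named (red, rose; blue, fell; black, did not pass) and equal change dotted. SESN1, SESN3 and DDIT4 lie near the dotted line, and 233 grey points fall outside the axes.

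The genes with the pair of hairpin changes most like each called member were looked up among 9710 others with a mean count of at least 100, by Euclidean distance on the log2 scale. Only 3 libraries enter, so many genes lie close. For SESN1 they were SLC25A36, C4orf33 and RRM2B, at distances of 0.0247, 0.0248 and 0.0338. RRM2B, a ribonucleotide reductase subunit, had log2 changes of 1.03 and 1.05 with shRNA 1 and shRNA 2, where SESN1 had 1.02 and 1.08. For SESN3 they were DNAJB9, KLHL24 and AP1AR, at 0.0492, 0.0883 and 0.103. DNAJB9, a chaperone of the endoplasmic reticulum, had 1.32 and 1.46, where SESN3 had 1.27 and 1.45. For DDIT4 they were ETHE1, EMD and ATAD3A, at 0.0128, 0.0168 and 0.0185. ETHE1, a mitochondrial sulfur dioxygenase, had −0.49 and −0.67, where DDIT4 had −0.49 and −0.66.

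Calls in the rest of the mTORC1 pathway are read against the 7.72% of all genes that passed. Of 8 subunits of mTORC1 and mTORC2, 0 passed (median log2 change −0.15), with MTOR, the kinase, at 73.5, 75.7 and 69.4 CPM in WT, shRNA 1 and shRNA 2 and RPTOR, its mTORC1 scaffold, at 24.5, 24.8 and 21.4. Of 5 GATOR2 subunits and 4 subunits of KICSTOR, which anchors GATOR1 to the lysosome, 0 passed. Of 10 tested Rag, Ragulator and RHEB genes, 1 rose and 0 fell. That gene was LAMTOR3, a subunit of the lysosomal Ragulator scaffold, with 252, 657 and 633 counts, or 25.3, 57.3 and 56.0 CPM. Its log2 change was 1.16 ± 0.19 (SE; adjusted p = 8.33e-04, quasi-likelihood test of edgeR). The other 4 Ragulator genes, LAMTOR1, LAMTOR2, LAMTOR4 and LAMTOR5, did not pass, at fold changes of 0.909, 0.760, 0.726 and 1.03.

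Among 7 other nutrient sensors and Rag regulators, all lay above WT with both hairpins, where 39.9% of all genes tested did. FNIP2 was barely above it with shRNA 2, at 100.6% of WT. The median log2 change of the 7 was 0.43, and 1 passed. This was the gene of SAMTOR, listed in the table under an older name, a sensor of S-adenosylmethionine that acts through GATOR1. It had 122, 276 and 285 counts and a log2 change of 1.01 ± 0.22 (SE; adjusted p = 0.00858, quasi-likelihood test of edgeR). Of 8 other negative regulators of mTORC1, PRKAB2, a subunit of the energy sensor AMPK, rose 1.61-fold. Of 11 effectors, the translation repressor PDCD4 rose 1.66-fold, and EIF4EBP1, the mTORC1 substrate 4E-BP1, fell to 0.676 of WT. With the GC trend removed, SLC38A9 and FNIP2 from the list of sensors and Rag regulators were at −0.05 and −0.03. The arginine sensor CASTOR1 then passed at a log2 change of 0.72. Under the same correction LAMTOR3 passed again, and SAMTOR, PRKAB2, PDCD4 and EIF4EBP1 did not, at log2 changes of 0.67, 0.48, 0.45 and −0.25. DESeq2's Wald test did not call SAMTOR, PRKAB2, PDCD4 or EIF4EBP1 either. PDCD4 shares 24.8% of its read-length sequences with the opposite-strand BBIP1. CASTOR1, which did not pass without the GC correction, shares 38.0% with AC004997.1 on its own strand.

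**Figure D4:**
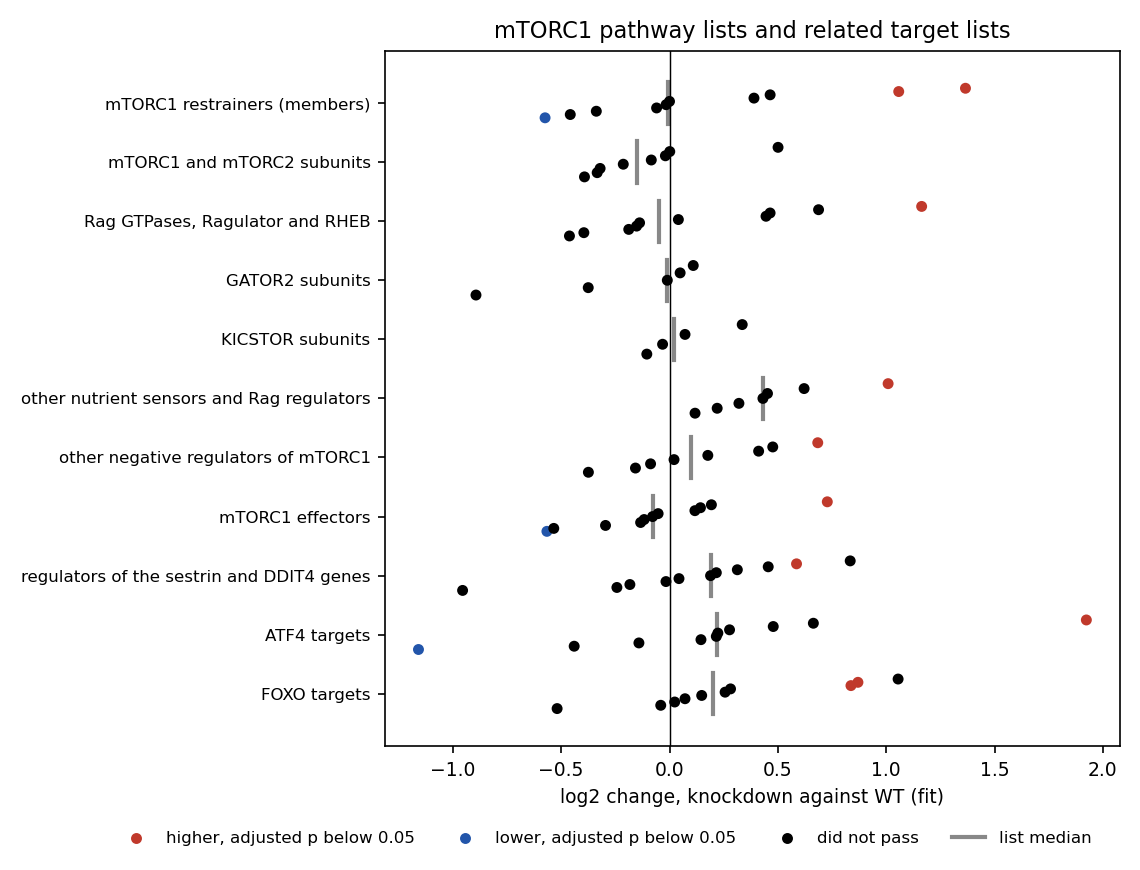
log2 change of knockdown against WT (horizontal axis) for each tested gene of the 10 restrainers and of 10 further lists, 1 row per list (red, rose; blue, fell; black, did not pass; grey bar, list median). The restrainers and the FOXO targets hold 2 red points each and the other rows at most 1. All genes in the row of other nutrient sensors and Rag regulators lie above 0. The GC trend is not removed in this fit.

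Among regulators of the sestrin and DDIT4 genes, 1 was called at the RNA level, where 7.72% of all genes passed. Of 11 tested (median log2 change 0.19), HIF1A, the oxygen-regulated subunit of HIF1, rose, from 1687 CPM to 2416 and 2650 (1.501-fold), which did not pass with the GC trend removed (log2 change 0.23). FOXO1 was at 1.14-fold, FOXO3, of whose 75-base sequences 21.7% also occur elsewhere, at 1.37-fold and ATF4 at 0.845-fold, all without passing. These are RNA levels, and the activity of such factors is largely set on the protein, which was not measured.

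Listed targets of ATF4 and of FOXO factors are read against the 7.72% of all genes that passed. Of 10 ATF4 targets, ATF3 rose 3.79-fold, from 11 counts to 41 and 55, and PHGDH, the first enzyme of serine synthesis, fell to 0.448 of WT, and the median was 0.22. The call of PHGDH was lost by DESeq2's Wald test, which gave ATF3 no adjusted p. ATF3 was also left out where a mean count of at least 50 was required. Of 10 FOXO targets, KLF6 (1.83-fold) and the cyclin gene CCNG2 (1.79-fold) rose and 0 fell, with a median of 0.20. ATF3, PHGDH, KLF6 and CCNG2 passed again with the GC trend removed, at log2 changes of 1.89, −1.05, 0.82 and 0.62. Differences between these lists were not tested.

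**Figure D5:**
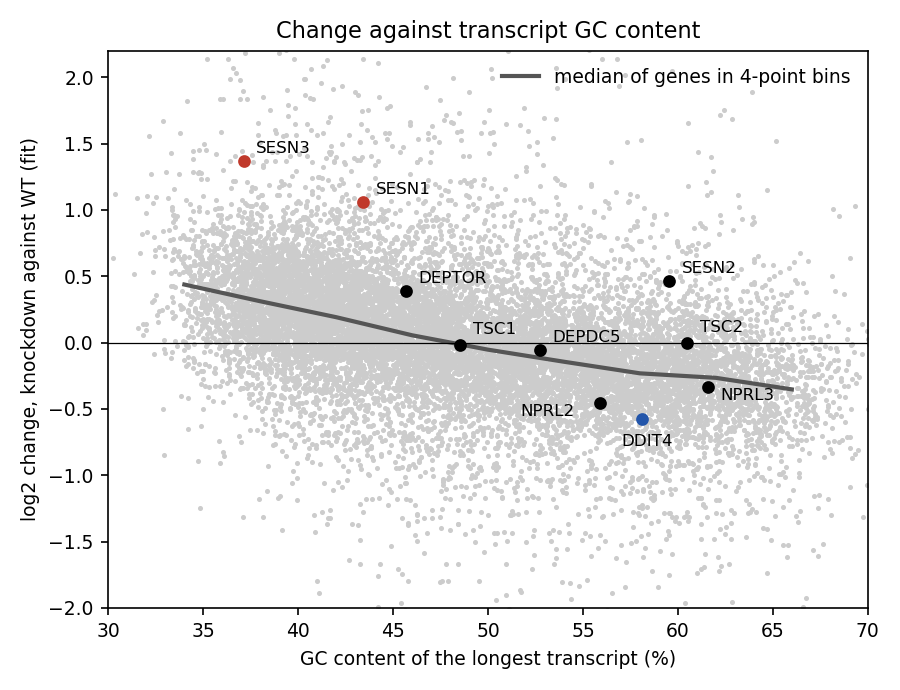
log2 change of knockdown against WT (vertical axis) against the GC content of the longest transcript (horizontal axis, %) for 14124 genes tested, with the 10 genes named (red, rose; blue, fell; black, did not pass) and the running median in dark grey. SESN1, SESN2 and SESN3 lie above the median line at 43.4%, 59.5% and 37.1% GC, DDIT4 lies below it at 58.1%, and 183 grey points fall outside the axes.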

How the data were processed

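Total RNA libraries were sequenced as 75 bp reads, per the labels' protocols. The authors deposited estimated counts per Ensembl gene, already whole numbers, so rounding changed 0 values. RSEM 1.2.3, edgeR and hg19 are named in the submitters' processing notes without their roles. RSEM divides ambiguous reads between genes by a model. Of 57736 rows, 34038 held no count. Genes passing filterByExpr (14524) were fitted with edgeR 4.0.16 (R 4.3.3), TMM scaling and the quasi-likelihood test, on 1 residual degree of freedom plus a prior of 18.9. SEs came from the estimate and its F statistic, intervals from the t distribution with those degrees of freedom, and single-hairpin changes from log2 CPM (prior count 2). The fit and the GC correction were checked on simulated data.

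Gene positions, exon lengths, GC and shared 75-base sequences came from GENCODE 29 (GRCh38), not the authors' hg19. GC was known for 97.2% of genes tested. The trend was removed as a lowess curve per library (span 0.3). Nothing in the labels gives more than 1 culture per library. The p-values thus rest on the spread between the hairpin libraries, mostly shared between genes through the prior.

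The 10 genes and all lists were chosen with earlier results of these data known. Besides them, up to 3 rising and 3 falling genes of each list that passed were named, with fixed inducers, complex partners and nearest patterns. One item and the results that need it are not reported here. CASTOR2 and PECAM1 were not matched and are not analysed here. Subunits of Ragulator other than LAMTOR3 were named after their values were seen. Alternatives were other scalings, filters and tests (DESeq2 1.42.0), GC correction, single hairpins and other lengths.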

Additional observations from a re-analysis of the deposited data

How the results depend on the processing

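SESN1, SESN3 and DDIT4 passed with DESeq2 size factors, library size alone, upper quartile scaling, a mean count of at least 50 and edgeR's likelihood ratio test. With no filter on low counts, 0 of the 10 and 0 of all genes passed edgeR's quasi-likelihood test, although 2486 genes had an unadjusted p below 0.05. DESeq2's Wald test called 306 genes and 1 of the 10, SESN3. It gave no adjusted p for 6195 genes, DEPDC5 and DEPTOR among them. With the GC trend removed, 684 genes passed, 250 upwards and 434 downwards, against 575 and 546, and SESN2 passed in place of DDIT4. With library size alone, 868 rose and 595 fell.

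Genes near 0 changed sign. TSC1 was at 0.018 with library size alone, and at −0.0892 without HDAC2 knockdown replicate 2 (shRNA 2) and 0.043 without replicate 1 (shRNA 1). TSC2 was at 0.0337 with library size alone, 5.73e-04 with no filter, 0.26 with the GC trend removed, and −0.0389 and 0.0261 without replicates 2 and 1. DEPDC5 was at 0.056 with the GC trend removed. MTOR was at 0.0147 with library size alone, 0.0818 with the GC trend removed, and −0.0829 and 0.0298 without replicates 1 and 2. RPTOR was at 0.163 with the GC trend removed, and −0.192 and 0.00499 without replicates 1 and 2. The cause was not tested. Without either hairpin, 1 library faces 1 and no test remains. No paired analysis was possible because there is 1 WT library.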

Other observations

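Genes often used as loading references did not stay level together. GAPDH, a glycolytic enzyme, was at 11878 CPM in WT and at 72.9% and 68.7% of that with shRNA 1 and shRNA 2, and passed edgeR's quasi-likelihood test (log2 change −0.50 ± 0.11, SE; adjusted p = 0.00899). With the GC trend removed its log2 change was −0.26 and did not pass, and the call was also lost by DESeq2's Wald test and by edgeR's likelihood ratio test. ACTB, a cytoskeletal actin, was at 0.830-fold, TBP, a basal transcription factor, at 1.03-fold and HPRT1, a purine salvage enzyme, at 1.05-fold, all without passing. Levels of the sestrins set against GAPDH would therefore show larger rises than levels set against TBP. SPP1, the gene of osteopontin and one of the clear cell carcinoma markers, rose 1.53-fold, and with the GC trend removed its log2 change was 0.43 and did not pass.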
